A study of Caenorhabditis elegans with 3 samples.

Results

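The early larval timing genes are 5 protein-coding genes of Caenorhabditis elegans, lin-14, lin-28, lin-46, lin-66 and hbl-1, which were taken by name from the 19973 nuclear protein-coding genes of the Ensembl annotation. For each gene, the binding sites of NHR-25 were those with a summit between 5000 bp upstream of the first transcript start and the end of the gene. This gave 12 sites, out of 4548 in the whole genome in the authors' optimal list, which is named as thresholded on reproducibility. A summit is the base of strongest binding in a site. NHR-25 is a nuclear hormone receptor of the FTZ-F1/SF-1 family. Its binding was profiled by chromatin immunoprecipitation and sequencing (ChIP-seq) in whole L2 larvae of mixed sex, from the strain OP33 with the genotype unc-119(ed3) III; wgIs33. A transgene supplied NHR-25 fused at the C-terminus to GFP-FLAG, as the label of replicate 3 states, and the labels do not say whether the untagged gene was intact, nor do they give the transgene's promoter or copy number. All 3 biological replicates belonged to this 1 group. Replicates 1 and 2 carry a size range in their labels and came from the CGC, and replicate 3 carries sonication and came from Michael Snyder's laboratory. Whole worms were used, so a site is a sum over all tissues of the larva.

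Heterochronic genes decide which larval stage a dividing cell behaves as, and mutants in them skip or repeat stage-specific cell divisions, above all in the seam cells of the epidermis. lin-14 encodes a nuclear protein that promotes fates of the earliest larval stage. lin-28 encodes an RNA-binding protein that promotes those of the next stage, and hbl-1 encodes a zinc finger protein related to Drosophila Hunchback that prevents later fates from appearing too early. MicroRNAs end each of these activities, lin-4 that of lin-14 and lin-28 and the let-7 family that of hbl-1. lin-46, which encodes a gephyrin-related protein, acts downstream of lin-28, and lin-66 is known for keeping the level of lin-28 low. NHR-25 itself is known for roles in the same epidermal cells, in molting and in vulval development.

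The DNA under the summits showed how varied these sites were. The sequences below are 101 bp centred on the summit, on the plus strand, which is that of each gene shown, and were read from the RefSeq sequence of the ce11 assembly. They are some of the sites that hold the site of the receptor family, a related half-site or another searched motif, or that lie at a first promoter. Others of this kind are not shown: the lin-14 site 13396 bp downstream, the site upstream of lin-28 and the lin-46 site. Capitals mark matches to the motifs described after them.
hbl-1, 1013 bp upstream of the first start, chrX:5821079-5821179: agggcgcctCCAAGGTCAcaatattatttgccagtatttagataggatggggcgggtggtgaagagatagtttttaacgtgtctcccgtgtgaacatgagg
lin-14, 3232 bp upstream, chrX:11462278-11462378: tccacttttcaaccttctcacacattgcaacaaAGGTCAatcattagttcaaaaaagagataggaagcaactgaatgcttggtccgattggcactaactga
lin-14, 177 bp upstream, chrX:11465333-11465433: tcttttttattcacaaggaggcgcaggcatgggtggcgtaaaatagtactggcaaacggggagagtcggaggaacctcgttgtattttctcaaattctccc
lin-14, in the third intron, 8902 bp downstream of the first start, chrX:11474412-11474512: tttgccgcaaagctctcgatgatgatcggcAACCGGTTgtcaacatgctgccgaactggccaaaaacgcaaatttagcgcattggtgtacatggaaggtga
lin-14, in the third intron, 14207 bp downstream, chrX:11479717-11479817: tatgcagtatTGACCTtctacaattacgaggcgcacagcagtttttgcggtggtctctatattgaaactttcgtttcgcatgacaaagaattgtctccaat
lin-66, 386 bp upstream, chrIV:13887643-13887743: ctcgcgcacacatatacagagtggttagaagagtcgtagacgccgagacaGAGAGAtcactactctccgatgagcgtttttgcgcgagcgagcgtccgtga

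The hbl-1 site held the extended half-site known for FTZ-F1 receptors, in the form CCAAGGTCA, with its centre 37.0 bp upstream of the summit. The search took these letters with either pyrimidine at the first and the seventh base and either purine at the last, on both strands. It lay within 50 bp of 64 of the 4524 nuclear summits of the genome (1.41%) and of 1 of the 12 sites described here. The short half-site AGGTCA is contained in the hbl-1 match. It also lay 14.5 bp upstream of the summit of the lin-14 site at 3232 bp upstream, and on the opposite strand (TGACCT) at the lin-14 site 14207 bp downstream, 37.5 bp upstream of the summit. AGGTCA was thus present at 3 of the 12 sites, against 6.56% of nuclear summits. At the lin-14 site 14207 bp downstream, the summits of replicates 1, 2 and 3 lay 1, 98 and 183 bp from the optimal summit. The place of the motif against the summit is therefore uncertain there. With 12 sites that are not independent, these counts are descriptions and were not tested.

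The other 4 motifs were found at 0 to 2 of the sites each. The Grainyhead-type site AACCGGTT, which reads the same on both strands, stood 16.5 bp upstream of the summit of the lin-14 site at 8902 bp downstream, and 1.08% of nuclear summits had one. GAGAGA or its reverse complement was found at 2 of 12 sites, against 24.6% of nuclear summits. When the search reached 25 and 100 bp from the summit it was at 1 and 6 sites, for which no share of nuclear summits was taken. At lin-66 GAGAGA began at the summit itself, and at the lin-14 site 13396 bp downstream its reverse complement lay 33.5 bp further along the gene. The E-box CACGTG was found at 0 of 12 sites, against 5.88%. The GATA-type motif TGATAA was found at 1 site, upstream of lin-28, against 9.15%. In all, 7 of the 12 sites held at least 1 of the 6 motifs, against 41.7% of nuclear summits, and a site with no match, such as the first promoter of lin-14, says only that these letters are not within 50 bp of that summit. The median GC content of the 12 windows was 45.5% (range 31.7 to 54.5%), against 42.6% for all nuclear summits and 35.4% for the nuclear genome. The lin-66 window was the richest in GC and the one upstream of lin-28 the poorest.

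Sites were found at each of the 5 genes. lin-14 had 7, lin-28 had 2, and lin-46, lin-66 and hbl-1 had 1 each. Among all nuclear protein-coding genes, 26.1% had at least 1 summit in the same window, 8.67% at least 2 and 0.13% at least 7. Longer windows can hold more summits. Of the 2635 genes whose window was at least as long as the 10614 bp of hbl-1, 38.8% had at least 1. The same share was 39.5% for windows at least as long as that of lin-66 and 30.6% for lin-46. With windows at least as long as that of lin-28, 13.3% of genes had at least 2. Each of these sets includes the named gene itself. The 5 windows together covered 61885 bp and held 1.939 summits per 10000 bp, where the nuclear genome as a whole, not only gene windows, held 0.451. By gene the values were 2.765 for lin-14, 2.446 for lin-28, 1.454 for lin-46, 0.942 for hbl-1 and 0.917 for lin-66. The list had been chosen with earlier results of these data known, so these shares are given for scale.

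**Figure D1:**
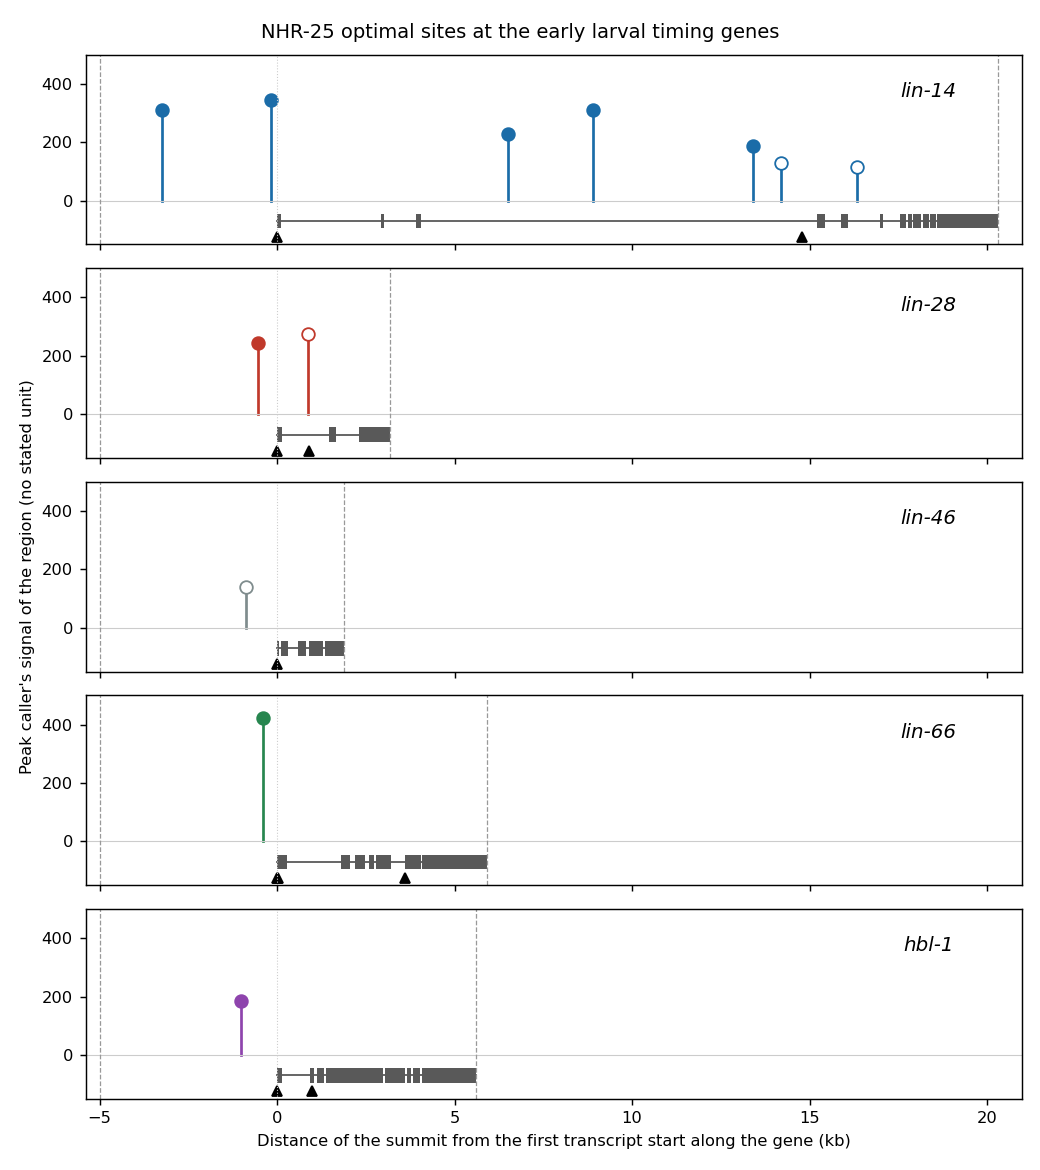
Signal of each NHR-25 site (vertical axis, as the authors' peak caller gave it, with no stated unit) against the distance of its summit from the first transcript start (horizontal axis, kb) at the 5 genes. Filled circles are sites supported by all 3 replicates, open circles by 1 or 2, grey boxes are exons of the transcript with the first start, triangles are transcript starts and dashed lines bound the searched window; 7 of the 12 sites lie at lin-14 and 5 of those inside the gene.

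In each of the 5 genes the site nearest to the first start lay upstream of it. The distances upstream were 177 bp for lin-14, 386 bp for lin-66, 546 bp for lin-28, 870 bp for lin-46 and 1013 bp for hbl-1. A promoter window ran from 1000 bp before to 200 bp after any annotated start. By that rule 4 of the 5 genes had a bound promoter, and hbl-1 fell just outside it. The same rule held for 13.4% of all protein-coding genes and for 21.2% of those with 2 or more annotated starts, as 4 of these 5 genes have. Of the 12 summits, 6 lay upstream of the gene and 6 in introns. None of the 12 lay in an exon of a protein-coding gene, which held 8.5% of nuclear summits, while introns held 25.9%. These shares cover all nuclear summits, not only those in windows of this kind, and are given for scale. Most of the summits in introns were those of lin-14.

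lin-14 (WBGene00003003, X, 11465560 to 11485871, plus strand) carried the most sites of the 5 genes. Only 18 protein-coding genes of the genome had more than its 7 summits, and the highest number was 13. Its window, 25312 bp, is among the longest, and of the 187 genes with a window at least this long 3.21% had 7 or more summits, with a median of 0. Other protein-coding genes neither start in this window nor reach into it. The gaps between neighbouring summits ran from 811 to 6691 bp, so the sites are spread over the locus and do not form 1 cluster.

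Of the annotated starts of lin-14, one is at 11465560 and the other 14801 bp further along, and a site lay upstream of each. The site at the first promoter (X, 11465261 to 11465514) had a signal of 343, the highest of the gene on the peak caller's own scale, which is not stated, and rank 837 of the 4548 optimal sites. It ranked 1364, 475 and 1036 among the 30000 regions listed for replicates 1, 2 and 3. Its summit was also 78 bp upstream of the start of T25C12.8, a non-coding RNA gene on the other strand, so it cannot be given to lin-14 alone. The site farther upstream, at 3232 bp (X, 11462235 to 11462383), had a signal of 311 and ranked 1143, 1152 and 1031, the narrowest range of ranks among the 12 sites. No other annotated gene had a promoter window or body there.

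Inside lin-14, 4 of the 5 sites fell in the third intron of the long transcript, which at 11174 bp makes up 55% of the gene. Of 114 introns of protein-coding genes at least as long, 7.02% held 4 or more summits and 74 held 0. The strongest of the 4, at 8902 bp downstream of the first start (X, 11474359 to 11474611), had a signal of 310 and ranked 1066, 872 and 1554 in the replicates. This signal was close to those of both upstream sites. The site at 6514 bp (X, 11471994 to 11472221), with a signal of 229, ranked 2038, 3502 and 1068, and that at 13396 bp (X, 11478857 to 11479065), with 188, ranked 2119, 4321 and 2328. All 3 of these sites were thus within the strongest 4548 regions of each replicate.

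The 2 weakest sites of lin-14 were those nearest to the second start on either side. The site 594 bp upstream of it (X, 11479572 to 11479961), still in the third intron, had a signal of 128 and ranked 2341, 2857 and 11021. It was outside the strongest 4548 regions of replicate 3, where the overlapping region had its summit 183 bp away. The site 1545 bp downstream of it (X, 11481711 to 11482100), in an intron that both transcripts share, had a signal of 114, rank 4211 of the optimal list, and ranked 18529, 2381 and 3676. It was outside the strongest regions of replicate 1, where the overlapping region had its summit 208 bp away. The order of the 7 sites was not the same in every replicate. The strongest was the intron site at 8902 bp in replicate 1, the first promoter in replicate 2 and the site 3232 bp upstream in replicate 3, and these 3 filled the first 3 places in replicates 1 and 2.

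**Figure D2:**
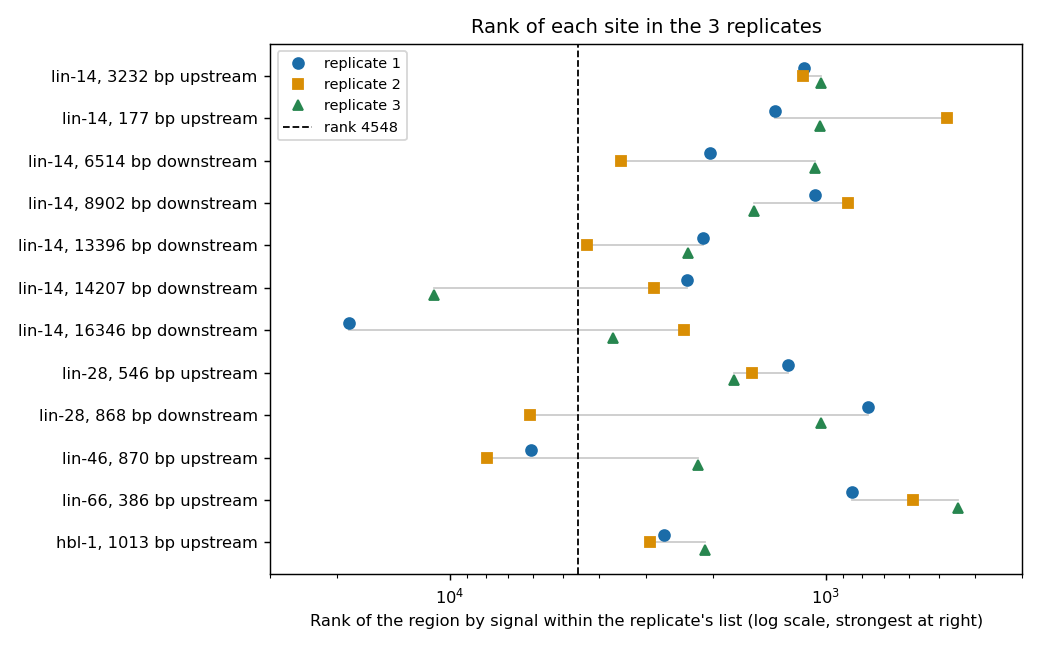
Rank of the region that overlaps each of the 12 sites in each replicate's own list of 30000 regions (horizontal axis, log scale, strongest at the right), with grey lines joining the lowest and highest rank and a dashed line at rank 4548. For 8 sites all 3 replicates lie to the right of the line; the lin-46 site has only replicate 3 there, and the 2 weakest lin-14 sites and the lin-28 intron site each have 1 replicate to its left.

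lin-66 (WBGene00001562, IV, 13888079 to 13893986, plus strand) had 1 site, and it was the strongest of the 12. It lay at IV, 13887548 to 13887877, 386 bp upstream of the first start, with a signal of 424 and rank 565 of the optimal list, above 88.0% of nuclear sites. The replicates ranked it 853, 586 and 446, a mean of 628 ± 207 (SD, n = 3). No other gene had a promoter window there. The internal start of lin-66, 3596 bp along the gene, had no optimal site in its promoter window. Regions outside the optimal list recurred in the first intron, with summits 1703, 1619 and 1550 bp downstream of the first start and ranks of 9646, 5630 and 6855 in replicates 1, 2 and 3.

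hbl-1 (WBGene00001824, X, 5822142 to 5827755, plus strand) also had 1 site, of average strength. The site at X, 5821042 to 5821152 had a signal of 183, close to the median of 182 for nuclear sites, and rank 2265 of the optimal list. It ranked 2697, 2930 and 2094 in the replicates (mean 2574 ± 431, SD, n = 3), so its place was much the same in each. It is this region that holds the extended half-site shown above. The summits of the replicates lay 8, 0 and 36 bp from that of the optimal region, which is 111 bp wide. No optimal site lay in the promoter window of the second start of hbl-1, 990 bp along the gene, or between the starts. A stronger site lay 550 bp beyond the end of the gene (X, 5828139 to 5828477), with a signal of 428, rank 557 and support in all 3 replicates. It lay in the promoter window of no protein-coding gene, and the window rule leaves it out.

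lin-28 (WBGene00003014, I, 8407630 to 8410804, minus strand) had a site upstream of each of its 2 annotated starts. The site 546 bp upstream of the first start (I, 8411238 to 8411396) had a signal of 244 and ranked 1258, 1572 and 1759 in the replicates. The other site (I, 8409812 to 8410068) lay in the first intron of the long transcript, 868 bp downstream of the first start and 16 bp upstream of the second. It had the higher signal, 276, and ranked 771 and 1028 in replicates 1 and 3 but 6107 in replicate 2. Replicates 1 and 3 therefore placed it above the upstream site and replicate 2 below. A weaker region at the 3′ end of the gene, outside the optimal list, was listed in each replicate at ranks 6073, 6310 and 3054.

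lin-46 (WBGene00003031, V, 12968855 to 12970730, plus strand) had the least certain site of the 5 genes. The region at V, 12967930 to 12968120, 870 bp upstream of the start, had a signal of 139 and rank 3297, and 27.7% of nuclear sites had a lower signal. It ranked 6083, 7964 and 2181, and only replicate 3 had it among its strongest 4548 regions. Its summit lay 3 bp upstream of the start of R186.8 and 775 bp upstream of that of R186.3, both protein-coding genes on the other strand, so 3 genes share it. Nearer to lin-46, at 182, 257 and 253 bp upstream of the start, each replicate listed a region outside the optimal list, at ranks 4508, 4649 and 24487. Replicates 1 and 2 thus ranked that other region above the one in the optimal list, and replicate 3 far below it. A further optimal site with a signal of 221 and support in all 3 replicates lay 49 bp beyond the gene end, in the promoter window of the neighbouring gene pnn-1.

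Recurrence of the 12 sites in the replicates was close to that of the whole list. Of the 12, 8 were among the strongest 4548 regions of replicate 1, of replicate 2 and of replicate 3, as were 55% of all 4548 optimal regions. Replicates 1 and 2 supported 10 sites each and replicate 3 supported 11, for which no share of all optimal regions was taken. All 12 overlapped some region of every replicate, background included, as did 4406 of the 4524 nuclear sites. Such an overlap therefore sets these sites apart from few others. The ratio of the worst to the best rank of a site had a median of 2.46 and ran from 1.12 to 7.92, against a median of 2.29 over the 4406 nuclear sites that were overlapped in all 3 replicates. The replicates' summits lay a median of 27.5 bp from the optimal summit at these sites and 21 bp over the same 4406 nuclear sites. The median signal of the 12 sites was 237, against 182 for all nuclear sites, and 9 of the 12 were above that value.

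The lists of 30000 regions, which mix peaks with background, had more regions per length at each of these 5 genes than at the median gene. In replicates 1, 2 and 3 the window of lin-14 held 29, 30 and 26 regions, or 11.5, 11.9 and 10.3 per 10000 bp. The median protein-coding gene had 1.69, 1.97 and 1.74, and 1.69, 1.22 and 2.83% of genes were as dense as lin-14. The nuclear genome as a whole had 2.99 regions per 10000 bp in the list of each replicate, more than the median gene. The other 4 genes had 6.42 to 11.01 regions per 10000 bp in the replicates, and 1.96 to 14.1% of genes were as dense as they were. Most of these regions were weak: outside the optimal regions, the strongest in lin-14 ranked 4281, 5350 and 3327.

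The rule's limits left out sites a short way beyond the windows. At the 5′ side the nearest ones were 498 bp outside for lin-46 (signal 151), 614 bp for lin-28 (199), 1117 bp for lin-66 (360), 2508 bp for hbl-1 (125) and 6068 bp for lin-14 (120). Of these, that of lin-66 lay in the promoter windows of rpl-29 and thoc-7, that of lin-28 in the promoter window of sin-3, that of lin-46 in that of hrg-9 and that of lin-14 in that of F48C5.2. That of hbl-1 lay in no promoter window. Past the gene ends, the nearest summit lay 837 bp away for lin-28, 963 bp for lin-66 and 48764 bp for lin-14, beside those of hbl-1 and lin-46 given above.

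**Figure D3:**
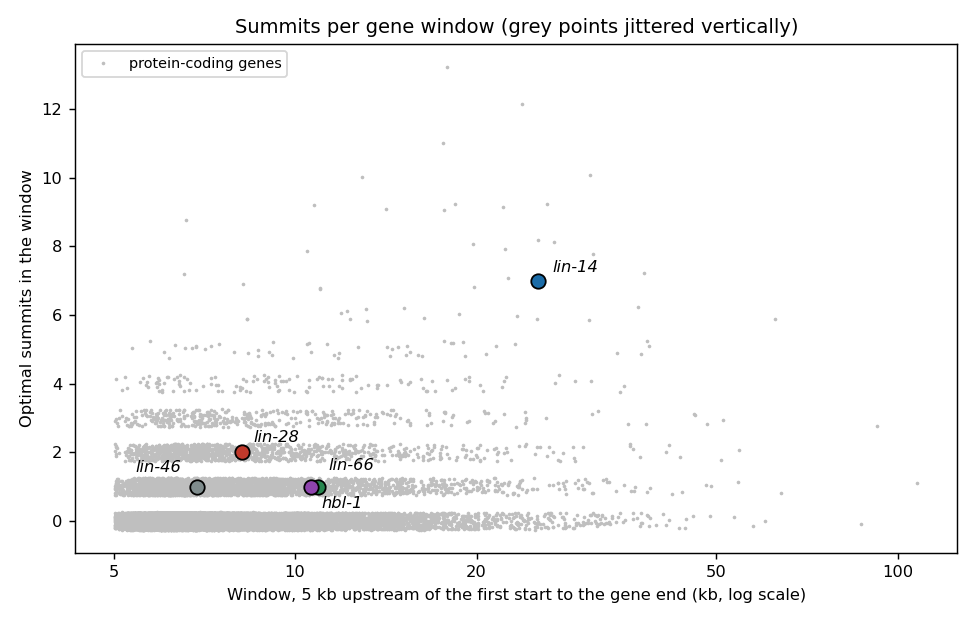
Number of optimal summits (vertical axis) against the length of the window from 5 kb upstream of the first start to the gene end (horizontal axis, kb, log scale) for all 19973 nuclear protein-coding genes in grey, jittered vertically, and the 5 early larval timing genes in colour. lin-14, with 7 summits, stands among the few genes above 6, while lin-28 with 2 and the other 3 genes with 1 lie within the mass of genes.

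Among 15 other protein-coding genes of the heterochronic pathway, 12 had an optimal summit in their window and 6 had one in a promoter window, where 4 of the 5 early genes did. Of all protein-coding genes, 26.1% had a summit in the window and 13.4% in a promoter window. Of those with a window at least as long as that of hbl-1, 38.8% had a summit in it. The pathway list was chosen with earlier results known, and these counts were not tested. For the 6 pathway genes with a promoter summit, only the strongest promoter site of each is given. These were mostly stronger than any of the 12 sites described here, which are all the sites of their genes, in promoters or not. nhl-2, whose product assists microRNA complexes, had a promoter site with a signal of 1568, puf-9, a Pumilio-family gene, one of 1244 and kin-20, a casein kinase gene, one of 992. ain-1, which encodes a GW182-type partner of Argonaute, had one of 703, alg-1, an Argonaute gene, one of 286 and lin-42, the Period homologue, one of 128. The sites of the first 5 were supported by all 3 replicates and that of lin-42 by 1. kin-20 had 9 summits in its window, more than lin-14, in 14163 bp. lin-29, alg-2 and dcr-1 had 0. lin-41, daf-12, dre-1, sea-2, blmp-1 and mab-10 had 1 to 3 summits, none in a promoter window. Of the 5 microRNA genes listed, let-7 had 1 summit in its window, outside the promoter window. The others, mir-241, mir-84, mir-48 and lin-4, had 0. Windows of the microRNA genes were placed from the RefSeq gene entry and were 6732 bp for let-7 and 5075 to 5098 bp for the others. For these short entries, a count of 0 does not show that a promoter lying elsewhere is unbound. No share of all microRNA genes was taken, so whether these counts are usual for such genes is not known.

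**Figure D4:**
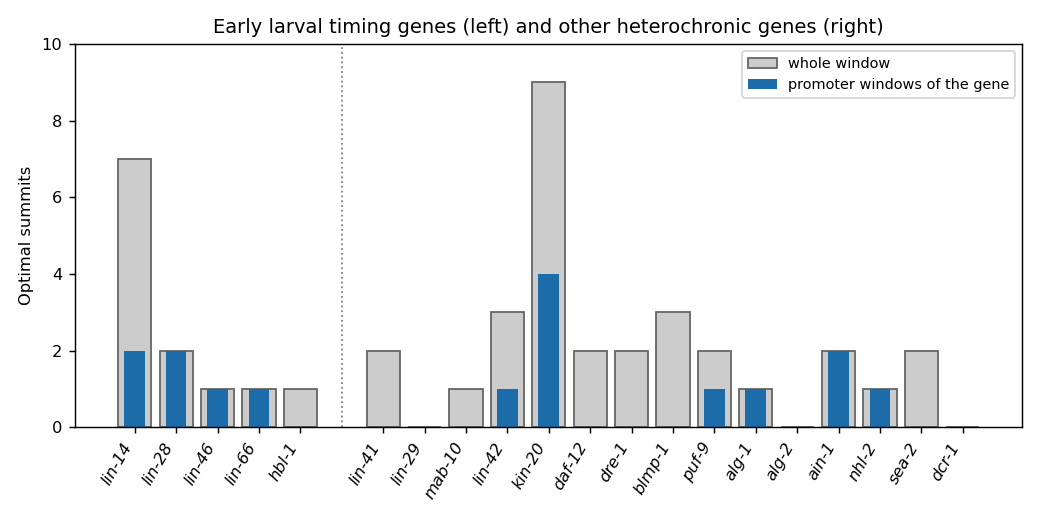
Number of optimal summits (vertical axis) in the window of each early larval timing gene, left of the dotted line, and of 15 other protein-coding heterochronic genes, right of it; grey bars count the whole window and blue bars the promoter windows. kin-20 has 9 summits, lin-14 has 7 and every other gene has 3 or fewer.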

How the data were processed

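The authors mapped the reads to ce11 and called regions for each replicate and for the pooled replicates, with a control as a further input, per the labels and the deposited note. That control was not analysed here. No aligner or peak caller is named in the sources used here. The deposited optimal list is named as thresholded on the irreproducible discovery rate, a measure of reproducibility, but which calls it was made from is not stated.

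The deposited signal per region has no stated scaling, so it was used to rank and describe regions within 1 list, and replicates were compared by rank. The deposited −log10 q-value was tied at its highest value for 3849 of 4548 optimal regions and for 11 of the 12 sites at these genes. Of the optimal summits, 3722 coincided with a summit of the deposited pooled list, while 0 optimal signals occur in it, so the signals of both lists are not on 1 scale. Peak lists give no read counts, so depth is unknown and signals carry no interval.

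Gene models were those of Ensembl release 115 for the same assembly, except for microRNA genes, which were found by name in RefSeq. Summits were the start plus the deposited offset, and coordinates are 1-based on ce11. The lists on ce10 were not used. Support by a replicate meant an overlap of at least 1 bp with any of the 4548 regions of highest signal in its list. Motifs were searched as plain strings within 50 bp of the summit on both strands. The programs were first tested on simulated data. Python 3.11.15, numpy 2.4.6 and pandas 2.3.3 were used.

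With 1 group no comparison between conditions was possible, and no test was made. The genes, the pathway list, the motifs and the settings were chosen with earlier results of these data known. The sites named are all those in the windows of the 5 genes, and the pathway genes named with values are those with a bound promoter. The regions outside the optimal list, the sites past the windows and the introns were chosen for description after their values were seen. Alternatives were windows from 2000 and 10000 bp upstream, promoter windows of 500 and 2000 bp, the 2274 strongest optimal regions, merging of overlapping regions, other definitions of support, motif windows of 25 and 100 bp and leaving out each replicate, by keeping the optimal regions supported by both others.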

Additional observations from a re-analysis of the deposited data

How the results depend on the processing

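All 5 genes kept at least 1 site with windows from 2000 and from 10000 bp upstream, where the sites numbered 11 and 17 and 19 and 35.2% of all protein-coding genes had a site, and after merging of overlapping regions. lin-46 had no site among the 2274 strongest optimal regions, where its rank of 3297 leaves it out. It had none either without replicates 1, 2 or 3, since replicate 3 alone supported it. Without each replicate 9 sites stayed, 4 genes had a site and 3 had one in a promoter window, against 19 to 19.4% and 9.02 to 9.44% of all genes. lin-28 went from 2 sites to 1 without replicate 1 or replicate 3, and lin-14 kept 5 to 6. With promoter windows of 500 and 2000 bp, 3 and 5 genes had a bound promoter, against 10.7 and 17.3% of all genes.

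The count of 8 sites supported by all 3 replicates was 5 with the strongest 2274 regions of each replicate, 10 with 9096, 4 when 50% of both regions had to overlap and 8 with summits within 100 bp. The share of all optimal regions, 55%, was taken under the main rule only. Whether these alternative counts followed the whole list is therefore not known. Among the 2274 strongest optimal regions, 16.6% of protein-coding genes had a summit in the window and 7.98% in a promoter window, as did 4 and 3 of the 5 genes. Sites with any of the 6 motifs numbered 4 within 25 bp and 11 within 100 bp of the summit, in place of 7, and the half-site of hbl-1 was outside the 25 bp window. Within 25, 50 and 100 bp, AGGTCA was at 1, 3 and 4 sites, GAGAGA at 1, 2 and 6, TGATAA at 1, 1 and 4 and CACGTG at 0, 0 and 1, while AACCGGTT stayed at 1. Leaving out each replicate gave 6 to 7 such sites. The wider or narrower search itself changes these counts. Shares of nuclear summits were taken at 50 bp only, so the counts at 25 and 100 bp cannot be set against them.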
